A study of Mus musculus with 9 samples.

Results

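The structural and long non-coding RNAs followed across the study were 10 rows: Rn45s (the ribosomal RNA precursor), Rpph1 and Rmrp (the RNA components of RNase P and RNase MRP), the long non-coding RNAs Malat1, Meg3, Miat, Gas5, Snhg1 and Snhg11, and the row of the protein-coding gene Lars2. They were taken by symbol from the expression table, where 10 of 10 were found among 23420 gene rows, and 10 of 10 passed the filter on low values (at least 1 TPM in at least 3 libraries). Rn45s, Lars2, Rpph1 and Rmrp were chosen by their TPM in this table, which differ between the compound and vehicle libraries, and Lars2 because its row moves with Rn45s, so their values are a description and carry no test. The 6 long non-coding RNAs were chosen with earlier results of these data known; their p-values come from a fit over the whole table and are adjusted over all 13839 genes tested.

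The libraries came from wild type C57BL/6J mice 2 days old, whose hippocampal neural stem cells were cultured and then moved to a medium lacking bFGF and EGF, which favours differentiation. All 9 libraries share that strain, age and medium. Cells received 3 µM NAT, described by the submitters only as a small molecule compound, 3 µM P7C3-A20, an aminopropyl carbazole known to act on newborn hippocampal neurons, or DMSO as vehicle, and each of these groups has 3 libraries. The labels call these biological replicates without saying whether they came from separate cultures or animals, so the p-values measure only the spread between these libraries. The table holds TPM, a level scaled to transcript length and to a total of 1000000 in each library, and the reads behind it, recovered from the steps of the values, came to 12994081 to 13803959 with NAT, 15885313 to 17217584 with P7C3-A20 and 12028821 to 14109316 with DMSO. Of the cell markers, the 6 of neural stem and progenitor cells summed to 16014 to 16409 TPM with NAT, 15492 to 16028 TPM with P7C3-A20 and 16764 to 17213 TPM with DMSO; the 4 of microglia and the 2 of blood were listed at 0 in every library. The 3 astrocyte markers summed to 2716 to 2880 TPM with NAT, 2616 to 2788 TPM with P7C3-A20 and 2533 to 2707 TPM with DMSO. The 4 of the oligodendrocyte lineage summed to 2922 to 3117, 3049 to 3581 and 3085 to 3215 TPM in those groups, and the 5 of neurons to 685 to 730, 659 to 717 and 698 to 727 TPM. The neural stem and progenitor sum was lower in every compound library than in any DMSO library. The astrocyte sum was higher in every NAT library than in any DMSO library, by a narrow margin of 2716 against 2707 TPM at the nearest. Of all genes tested, 14.1% were higher in every NAT library than in any DMSO library. The part of these marker sums in the results was not tested. In bulk RNA, fewer cells of a type and less RNA per cell cannot be told apart.

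RNA polymerase I transcribes the ribosomal RNA precursor in the nucleolus, and the precursor is cut into the mature ribosomal RNAs by processing factors, among them RNase MRP, whose catalytic RNA is Rmrp. RNase P, with Rpph1 as its RNA, trims the 5′ ends of tRNAs and shares most of its proteins with RNase MRP; both RNAs are made by RNA polymerase III. Gas5 and Snhg1 are spliced host transcripts that carry small nucleolar RNAs in their introns, and those small RNAs guide modification of ribosomal RNA. Malat1 is retained in nuclear speckles, Miat is a nuclear RNA first studied in heart and retina, and Meg3 is made from the maternal copy of an imprinted locus. Rn45s, Rpph1 and Rmrp do not end in a poly(A) tail, and the library kit that the labels name is built around selection of poly(A) RNA; whether that step was used is not given in the sources used here.

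The sequences of Rmrp and Rpph1 are shown because these RNAs share a processing role and both were lower in the compound libraries. Capitals mark the one match in each to GAANGTC, a form of the first conserved region of the RNase P and MRP core, which starts at base 68 of Rmrp and at base 61 of Rpph1. The motif was searched on the transcript strand, and 7.43% of the 5627 GENCODE M21 transcripts of 250 to 350 bases held it. Rmrp is shown whole, 271 bases from chr4:43492788-43493058 on the minus strand of GRCm38, and Rpph1 for bases 1 to 300 of its 319, from chr14:50807449-50807767 on the minus strand.
Rmrp: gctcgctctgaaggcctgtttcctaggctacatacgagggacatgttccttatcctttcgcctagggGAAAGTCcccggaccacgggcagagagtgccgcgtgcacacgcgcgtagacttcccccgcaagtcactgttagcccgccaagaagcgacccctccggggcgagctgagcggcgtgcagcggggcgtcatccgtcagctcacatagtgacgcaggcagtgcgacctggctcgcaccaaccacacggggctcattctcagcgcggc
Rpph1: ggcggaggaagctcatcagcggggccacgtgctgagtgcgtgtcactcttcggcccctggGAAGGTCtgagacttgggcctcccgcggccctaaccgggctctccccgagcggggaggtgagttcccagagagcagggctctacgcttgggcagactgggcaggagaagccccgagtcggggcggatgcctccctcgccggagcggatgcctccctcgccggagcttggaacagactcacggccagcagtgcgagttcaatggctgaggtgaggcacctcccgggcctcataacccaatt

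Start regions are shown for Gas5, Snhg1 and Meg3, which unlike the RNAs above are made by RNA polymerase II. Host genes of small nucleolar RNAs commonly open with a run of C and T, the 5′ terminal oligopyrimidine tract of genes for the translation machinery. Capitals mark the longest C/T run beside the annotated start and, where present, TGACGTCA, the cAMP response element. The run was 9 bases in Snhg1, 6 in Gas5 and 5 in Meg3. The Gas5 run began on the last base before the start, and the Snhg1 run at base 5 after it. The Meg3 run lay wholly before the start, so neither it nor the Snhg1 run opens the annotated transcript. Runs of at least 9, 6 and 5 bases lay within 10 bases before to 15 after the start in 5.87%, 24.4% and 40.7% of 32851 RefSeq promoters. TGACGTCA began 46 bases before the start of Gas5 and 57 bases before that of Meg3. It reads the same on both strands and occurred in 1.79% of the promoters, counted from 250 bases before to 50 after the start. The sequences are from RefSeq on GRCm38.p6, each 100 bases before to 50 after the start, at chr1:161035066-161035215 for Gas5 (the second of 2 listed starts), chr19:8723387-8723536 for Snhg1 and chr12:109540896-109541045 for Meg3 (the first of 2), all on the plus strand. The starts printed are those chosen for these features: the other listed starts of Gas5 and Meg3 have no TGACGTCA and longest runs of 3 and 2 bases. Among the RNAs not printed, which have no TGACGTCA in the window, the longest run was 10 bases in Lars2, 7 in Miat, 4 in Malat1 and 3 in Snhg11. Of these, the Miat run began on the last base before the start. The runs of Lars2, Malat1 and Snhg11 lay wholly before the start, so they do not open the annotated transcript. A match here is a description of the letters only.
Gas5: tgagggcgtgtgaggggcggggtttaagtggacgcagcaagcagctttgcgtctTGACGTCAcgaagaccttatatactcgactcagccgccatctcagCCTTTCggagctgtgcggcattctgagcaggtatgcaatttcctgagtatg
Snhg1: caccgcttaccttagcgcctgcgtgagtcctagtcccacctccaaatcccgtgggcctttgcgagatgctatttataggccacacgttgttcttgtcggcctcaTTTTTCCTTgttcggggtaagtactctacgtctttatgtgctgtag
Meg3: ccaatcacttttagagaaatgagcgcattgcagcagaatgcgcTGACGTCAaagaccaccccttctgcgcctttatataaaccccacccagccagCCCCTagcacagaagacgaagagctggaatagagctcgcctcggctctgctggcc

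In level, the RNAs ran from a mean of 1.36 TPM for Meg3 to 14625 TPM for Rn45s. Rn45s was the most abundant row of the whole table by its mean over the 9 libraries, and Malat1 ranked 11 with 2833 TPM and Lars2 ranked 34 with 1712 TPM. Snhg1 followed with 140 TPM, Gas5 with 131 TPM and Miat with 89.9 TPM. Rpph1 averaged 24.7 TPM, Rmrp 20.1 TPM and Snhg11 7.51 TPM. Of the neighbours in this order, the ranges over the 9 libraries overlapped for Malat1 and Lars2, for Snhg1 and Gas5, for Rpph1 and Rmrp and for Rmrp and Snhg11, and not for the other 5 neighbouring pairs.

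**Figure D1:**
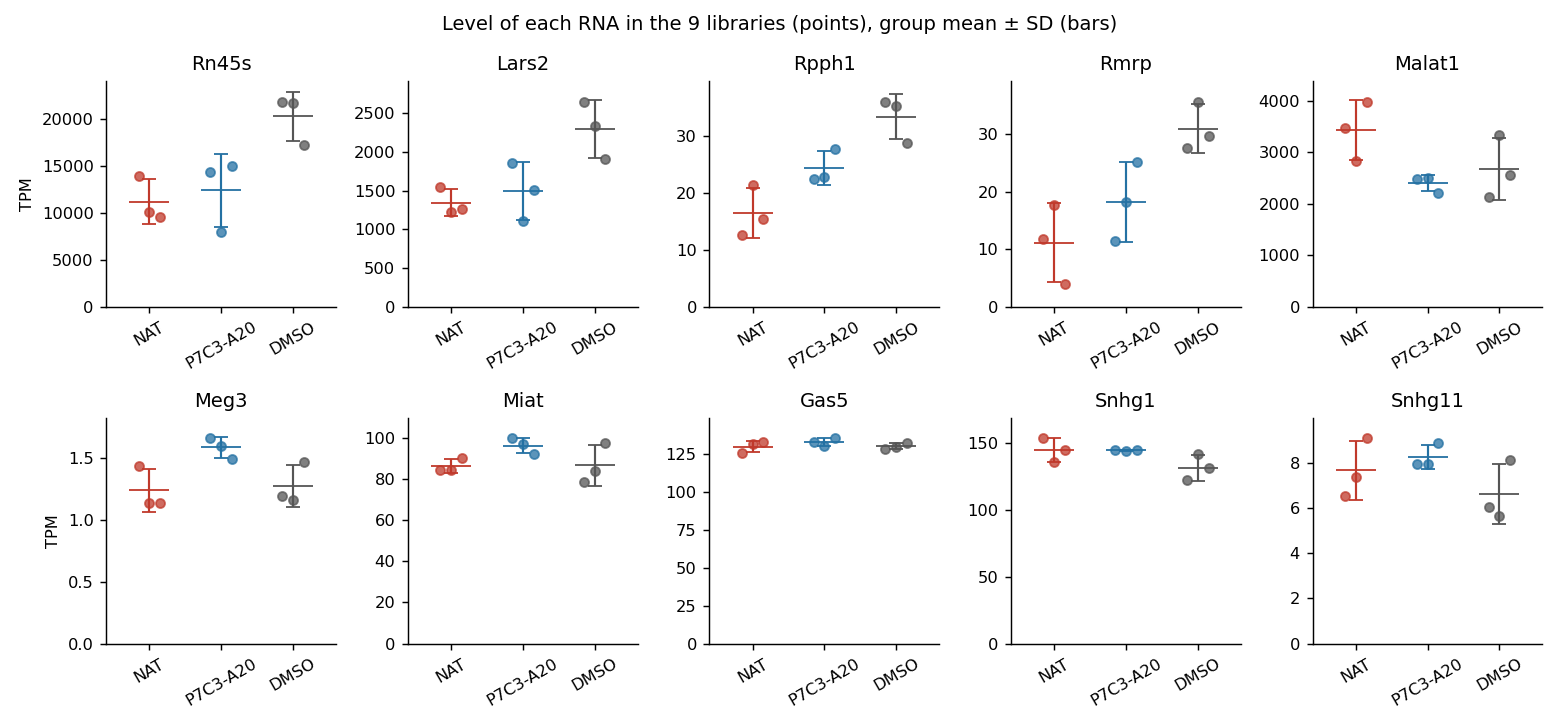
Level of each of the 10 RNAs in TPM on axes that start at 0, with a point per library and a bar at the mean ± SD of the 3 libraries of each group. Rn45s, Lars2, Rpph1 and Rmrp sit lower in all NAT and all P7C3-A20 libraries than in any DMSO library, and Gas5 lies between 125 and 135 TPM in all 9.

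The ribosomal RNA precursor had the most reads of the 10. Rn45s stood at 13976, 10044 and 9583 TPM in the 3 NAT libraries, at 14304, 7947 and 14996 TPM in the 3 P7C3-A20 libraries, and at 21845, 21699 and 17228 TPM in the 3 DMSO libraries. Every compound library was below every DMSO library, while the NAT and P7C3-A20 libraries overlapped. Means were 11201 ± 2414 TPM with NAT, 12416 ± 3885 TPM with P7C3-A20 and 20257 ± 2624 TPM with DMSO (SD, n = 3 each). On the log2(TPM + 1) scale the difference from DMSO was -0.87 with NAT and -0.75 with P7C3-A20, and that of NAT from P7C3-A20 was -0.11. Both differences from DMSO use the same 3 DMSO libraries. Quantile normalization gives rows of equal rank the same value in every library, so a row differs there only where its rank differs. Under it the Rn45s differences from DMSO were -0.28 with NAT and -0.23 with P7C3-A20. Without P7C3-A20 replicate 2, the lowest library, the P7C3-A20 difference from DMSO was -0.46. The NAT and P7C3-A20 order turned round without P7C3-A20 replicate 1 (0.02) and without P7C3-A20 replicate 3 (0.05).

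Lars2 encodes the mitochondrial leucyl-tRNA synthetase. Its row held 1542, 1230 and 1259 TPM in NAT libraries, 1863, 1114 and 1510 TPM in P7C3-A20 libraries, and 2652, 2330 and 1905 TPM in DMSO libraries. As for Rn45s, no compound library reached the lowest DMSO library. Means were 1344 ± 173 TPM with NAT, 1495 ± 375 TPM with P7C3-A20 and 2295 ± 374 TPM with DMSO (SD, n = 3 each). Differences from DMSO were -0.77 with NAT and -0.64 with P7C3-A20 on the log2(TPM + 1) scale. The difference of NAT from P7C3-A20 was -0.13, and 0.04 without P7C3-A20 replicate 1.

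Lars2 amounted to between 10.07% and 14.01% of the Rn45s level in every library. Across the 9 libraries the log2 levels of the pair had a Pearson r of 0.960, and of 0.888 after the group means were removed (n = 9, libraries that share their depth and preparation between the 2 rows). For comparison, 17 other synthetases were tested, namely the mitochondrial ones and Lars, the cytosolic leucyl-tRNA synthetase. Of these 0 passed an adjusted p of 0.05 in limma in either comparison with DMSO. At an unadjusted p under 0.05 there were 2 in each, beside 11.7% of all genes with NAT and 15.9% with P7C3-A20. The median difference of the 17 was 0.01 with NAT and 0.01 with P7C3-A20. Their differences lay between -0.16 and 0.13 with NAT and between -0.18 and 0.17 with P7C3-A20. Hars2, the mitochondrial histidyl-tRNA synthetase, had 33.3 ± 1.28 TPM with NAT and 30.4 ± 0.999 TPM with DMSO (SD, n = 3 each), a difference of 0.13. The GENCODE M21 transcript of Lars2, 3894 bases long, was compared with the 356 ribosomal RNA entries of that annotation, of which the longest is 1849 bases. The Lars2 transcript had 0 alignments at an E value of 0.001. The precursor itself was not among those entries, so this search cannot show whether the Rn45s and Lars2 rows share sequence. The part of shared sequence was not tested.

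**Figure D2:**
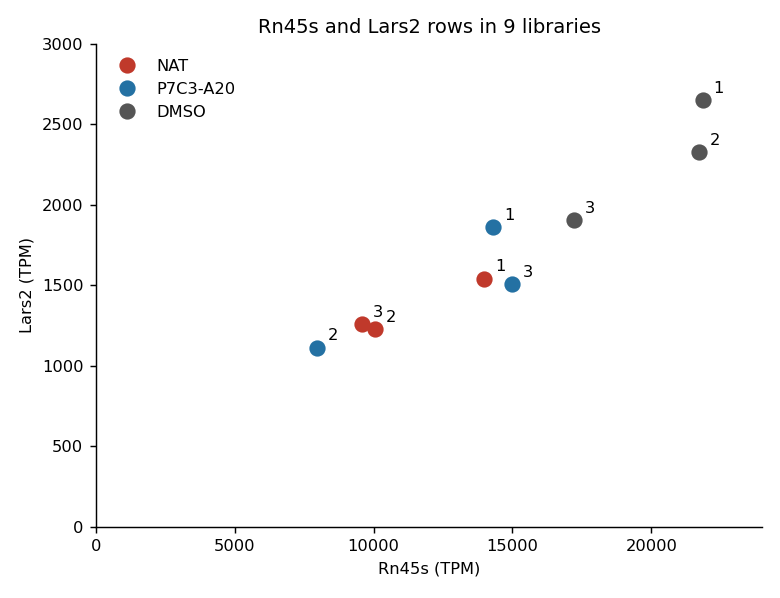
Lars2 against Rn45s in TPM, a point per library numbered by replicate and coloured by group. The points follow a common ratio, with Lars2 at 10.07% to 14.01% of Rn45s, and the 3 DMSO libraries sit at the top right.

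Rn45s and Lars2 together made up 1.08% to 1.55% of all TPM with NAT, 0.906% to 1.65% with P7C3-A20 and 1.91% to 2.45% with DMSO. Since TPM sums to the same total in each library, other genes share what these rows leave. The median gene differed from DMSO by 0.03 with NAT and 0.01 with P7C3-A20 on the log2 scale. After rescaling without Rn45s and Lars2 it differed by 0.017 with NAT and 0.003 with P7C3-A20. The 119 rows of small nucleolar and Cajal body RNAs had levels that summed to 1529 to 1669 TPM with NAT, 1560 to 1731 TPM with P7C3-A20 and 1478 to 1552 TPM with DMSO. The NAT range overlapped those of DMSO and P7C3-A20. Every P7C3-A20 library was above every DMSO library, by a narrow margin of 1560 against 1552 TPM at the nearest. These sums rest on 504 to 794 reads in a library. The part of poly(A) selection in the level of Rn45s was not tested.

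The genes that make and process ribosomal RNA showed small differences. Of 15 genes of RNA polymerase I and its factors, 0 passed an adjusted p of 0.05 with either compound. At an unadjusted p under 0.05 there were 1 with NAT and 2 with P7C3-A20, beside 11.7% and 15.9% of all genes. Their median difference from DMSO was -0.03 with NAT and 0.01 with P7C3-A20. Taf1c, a subunit of the selectivity factor SL1, had 11.5 ± 0.965 TPM with P7C3-A20 and 8.62 ± 0.468 TPM with DMSO (SD, n = 3 each), a difference of 0.37 ± 0.08 (SE) with an adjusted p of 0.139 in limma. Of 29 ribosomal RNA processing genes, again 0 passed with either compound. At an unadjusted p under 0.05 there were 0 with NAT and 4 with P7C3-A20, beside the same shares of all genes. The median was -0.003 with NAT and -0.004 with P7C3-A20. Fbl, the fibrillarin methyltransferase, had 58.7 ± 5.53 TPM with NAT, 71.4 ± 6.77 TPM with P7C3-A20 and 65.4 ± 6.06 TPM with DMSO.

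Rpph1, the RNase P RNA, showed the groups in order with no overlap. It held 12.6, 21.3 and 15.4 TPM in NAT libraries, 22.5, 22.8 and 27.8 TPM in P7C3-A20 libraries, and 36.0, 35.2 and 28.8 TPM in DMSO libraries. Every NAT library was below every P7C3-A20 library, and every P7C3-A20 library below every DMSO library. Means were 16.4 ± 4.44 TPM with NAT, 24.3 ± 2.97 TPM with P7C3-A20 and 33.3 ± 3.97 TPM with DMSO (SD, n = 3 each). The log2(TPM + 1) differences were -1.0 for NAT and -0.44 for P7C3-A20 from DMSO, and -0.56 for NAT from P7C3-A20. Few reads carry these values: 19, 34 and 23 with NAT, 42, 46 and 52 with P7C3-A20, and 54, 49 and 47 with DMSO.

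Rmrp, the RNase MRP RNA, held 11.8, 17.8 and 3.97 TPM in NAT libraries, 11.4, 18.2 and 25.2 TPM in P7C3-A20 libraries, and 27.6, 35.7 and 29.7 TPM in DMSO libraries. All compound libraries were below all DMSO libraries, and the NAT and P7C3-A20 libraries overlapped. Means were 11.2 ± 6.92 TPM with NAT, 18.3 ± 6.93 TPM with P7C3-A20 and 31.0 ± 4.22 TPM with DMSO (SD, n = 3 each). The differences from DMSO were -1.59 with NAT and -0.79 with P7C3-A20. NAT replicate 3, with 5 reads, was the lowest library; without it the NAT difference was -1.04. Without P7C3-A20 replicate 1 the P7C3-A20 difference was -0.50. Reads numbered 15, 24 and 5 with NAT, 18, 31 and 40 with P7C3-A20, and 35, 42 and 41 with DMSO. Across the 9 libraries Rpph1 and Rmrp had a Pearson r of 0.817, and of 0.457 with group means removed (n = 9, given as a description). Counting intervals of single libraries cover counting error only.

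**Figure D3:**
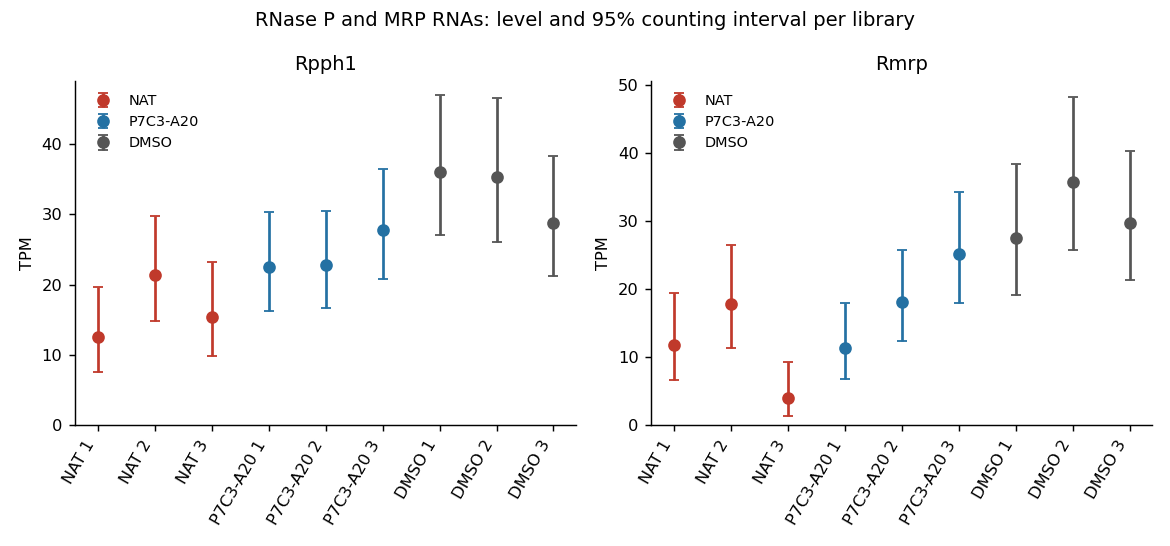
Level of Rpph1 (left) and Rmrp (right) in TPM in each library, with the exact Poisson 95% interval of its read count. Intervals of single libraries are wide, since 5 to 54 reads lie behind each point, and NAT replicate 3 has the lowest Rmrp level at 3.97 TPM.

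Transcripts for the protein subunits of RNase P and MRP showed small differences between the groups, and protein was not measured. Of 11 such genes, 10 were lower with NAT and 7 with P7C3-A20, beside 5049 and 6200 of all 13839 genes tested. Their medians were -0.07 and -0.08, against 0.03 and 0.01 over all genes tested. By limma 0 passed an adjusted p of 0.05. At an unadjusted p under 0.05 there were 1 with NAT and 4 with P7C3-A20, beside 11.7% and 15.9% of all genes. Rpp14 had 39.6 ± 0.372 TPM with NAT, 38.6 ± 1.90 TPM with P7C3-A20 and 43.1 ± 0.535 TPM with DMSO (SD, n = 3 each). Its differences from DMSO were -0.12 ± 0.04 with NAT and -0.16 ± 0.04 with P7C3-A20 (SE), with limma adjusted p of 0.349 and 0.172. Of 27 other small RNAs made by RNA polymerase III or of the spliceosome, 8 were in the table and 5 passed the filter, each with at most 8 reads in a library.

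Malat1, the most abundant long non-coding RNA, had its highest mean with NAT. It held 3469, 2823 and 3986 TPM in NAT libraries, 2474, 2504 and 2220 TPM in P7C3-A20 libraries, and 2134, 3333 and 2560 TPM in DMSO libraries. All NAT libraries were above all P7C3-A20 libraries, while DMSO replicate 2 lay within the NAT range. NAT differed from P7C3-A20 by 0.50 ± 0.15 (SE; limma adjusted p = 0.204), from DMSO by 0.37 ± 0.15 (adjusted p = 0.39), and P7C3-A20 from DMSO by -0.13 ± 0.15 (adjusted p = 0.69). By this test 0 of the 3 differences passed 0.05. When limma's voom was run on the recovered reads, an alternative chosen after seeing the data, the NAT against P7C3-A20 difference of 0.48 had an adjusted p of 0.0127, in a fit that called 254 genes in that comparison against 0 in the fit on TPM. Without DMSO replicate 1 the NAT difference from DMSO was 0.22 and the P7C3-A20 difference -0.29. The P7C3-A20 difference was -0.08 without P7C3-A20 replicate 3 and turned to 0.04 without DMSO replicate 2.

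Gas5, a host of small nucleolar RNAs that builds up in growth-arrested cells, was the steadiest of the RNAs. It held 125, 131 and 132 TPM in NAT libraries, 133, 130 and 135 TPM in P7C3-A20 libraries, and 128, 129 and 132 TPM in DMSO libraries, a coefficient of variation of 2.20% over 9 libraries. The difference from DMSO was -0.004 with NAT (95% interval -0.08 to 0.07) and 0.03 with P7C3-A20 (-0.04 to 0.10). The NAT difference changed sign when NAT replicate 1 or DMSO replicate 3 was left out.

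Snhg1 held 153, 136 and 145 TPM in NAT libraries, 145, 144 and 145 TPM in P7C3-A20 libraries, and 122, 141 and 131 TPM in DMSO libraries. The P7C3-A20 libraries were all above the DMSO libraries, and the NAT libraries overlapped them. Both compounds differed from DMSO by 0.14 ± 0.06 (SE), with limma adjusted p of 0.39 for NAT and 0.27 for P7C3-A20. Without DMSO replicate 1 both were 0.08. Between the compounds the difference was 0.0003 (95% interval -0.12 to 0.12), and its sign turned under several settings. Snhg11, a neuron-enriched host transcript, held 6.54, 7.36 and 9.08 TPM in NAT libraries, 7.94, 7.96 and 8.87 TPM in P7C3-A20 libraries, and 6.06, 5.66 and 8.14 TPM in DMSO libraries, with differences from DMSO of 0.19 (adjusted p = 0.612) and 0.29 (adjusted p = 0.321). DMSO replicate 3 lay within the range of both compounds. The NAT difference was 0.07 without NAT replicate 3 and 0.10 without DMSO replicate 2, and 0.28 without NAT replicate 1 and 0.33 without DMSO replicate 3.

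Of 12 further host genes that passed the filter, 0 were called in any comparison. At an unadjusted p under 0.05 in limma, 4 differed from DMSO with NAT and 3 with P7C3-A20, beside 11.7% and 15.9% of all genes. Between the compounds there were 2, beside 15.8% of all genes. Snhg3 had 38.2 ± 1.11 TPM with NAT and 46.3 ± 2.41 TPM with DMSO, and Snhg8 had 38.5 ± 3.56 TPM with NAT and 46.5 ± 1.33 TPM with DMSO (SD, n = 3 each). Their differences were -0.27 ± 0.06 and -0.27 ± 0.07 (SE), with limma adjusted p of 0.210 and 0.233. The small RNAs in the introns of Gas5 and Snhg1 had a row in the table for 2 of the 18 listed, and both passed the filter. Snord47, in a Gas5 intron, had 18.6 ± 4.29 TPM with NAT against 33.8 ± 8.56 TPM with P7C3-A20 and 22.2 ± 4.18 TPM with DMSO (SD, n = 3 each), from 5 to 15 reads in a library. Snord22, in an Snhg1 intron, had 23.6 ± 2.5 TPM with NAT against 20.2 ± 5.56 TPM with P7C3-A20 and 23.4 ± 3.89 TPM with DMSO (SD, n = 3 each), from 11 to 19 reads. The difference of NAT from P7C3-A20 was negative for Snord47 (-0.82) and positive for Snord22 (0.24), with limma adjusted p of 0.179 and 0.508.

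Miat held 84.7, 84.4 and 90.2 TPM in NAT libraries, 100, 97.0 and 92.3 TPM in P7C3-A20 libraries, and 78.5, 84.1 and 97.8 TPM in DMSO libraries. The NAT libraries were all below the P7C3-A20 libraries, and the DMSO libraries overlapped both. NAT differed from P7C3-A20 by -0.16 ± 0.07 (SE, limma adjusted p = 0.306) and from DMSO by -0.0009 (95% interval -0.15 to 0.15). P7C3-A20 differed from DMSO by 0.16 ± 0.07 (SE, limma adjusted p = 0.307), and by 0.086 with the GC trend removed. The sign of the NAT difference from DMSO changed with 1 library left out. Meg3, at the bottom of the scale with 64 to 128 reads, held 1.44, 1.14 and 1.13 TPM in NAT libraries, 1.66, 1.597 and 1.49 TPM in P7C3-A20 libraries, and 1.19, 1.16 and 1.46 TPM in DMSO libraries. P7C3-A20 lay above both other groups in every library, by 0.19 ± 0.14 (SE) from DMSO (adjusted p = 0.542).

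**Figure D4:**
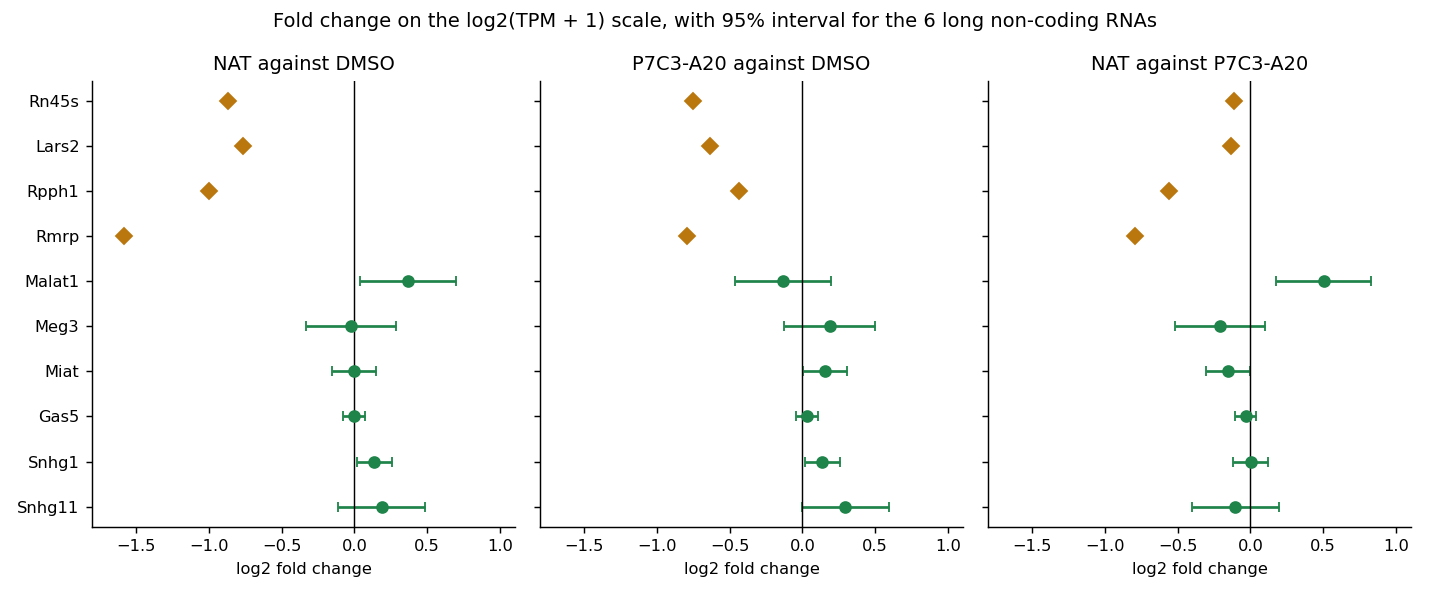
Difference of each RNA on the log2(TPM + 1) scale for NAT against DMSO, P7C3-A20 against DMSO and NAT against P7C3-A20, as diamonds without interval for the 4 rows picked for their values and as points with a 95% interval for the 6 long non-coding RNAs. The diamonds lie between -1.59 and -0.44 against DMSO, and the long non-coding RNAs between -0.13 and 0.37.

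Counted together, 0 of 10 RNAs were called at an adjusted p of 0.05 with NAT against DMSO, where 0.0289% of all genes tested were called. With P7C3-A20 against DMSO it was 0 of 10 against 0.0217% of genes, and for NAT against P7C3-A20 0 of 10 against 0%. At an unadjusted p under 0.05 limma gave 6, 5 and 3 of 10 in those comparisons, beside 11.7%, 15.9% and 15.8% of all genes, and the 4 rows chosen by their values make up 4, 3 and 1 of these. With NAT, 4 of 10 were below every DMSO library and 0 above, and with P7C3-A20 4 were below and 2 above; over all genes 4.89% were below and 14.1% above with NAT, and 7.49% below and 13.1% above with P7C3-A20. For NAT against P7C3-A20, 3 were below and 1 above, beside 8.35% and 13.3% of all genes. These 4 below DMSO are the 4 rows picked for that pattern, so nothing is read from their count. With voom on the recovered reads, 36, 468 and 254 genes in all were called in the 3 comparisons. Of the 6 long non-coding RNAs, voom called 0 with NAT against DMSO, 0 with P7C3-A20 against DMSO and 1, Malat1, for NAT against P7C3-A20.

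**Figure D5:**
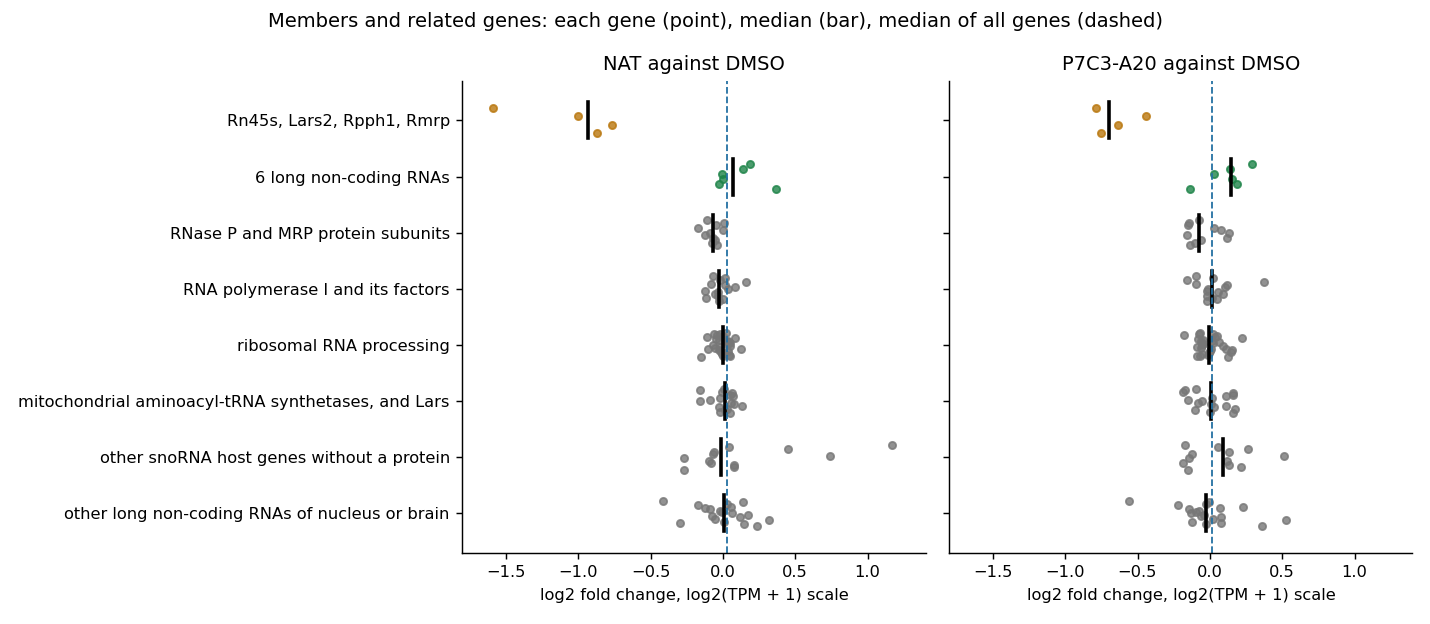
Difference from DMSO on the log2(TPM + 1) scale for NAT (left) and P7C3-A20 (right), a point per gene, a bar at the median of each list and a dashed line at the median of all genes. The protein subunits, RNA polymerase I genes, processing genes and synthetases centre within 0.08 of 0, while the 4 rows picked for their values have medians of -0.93 and -0.69.

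Among 19 other long non-coding RNAs of nucleus or brain that passed the filter, 0 were called in any comparison, and at an unadjusted p under 0.05 there were 4 with NAT and 7 with P7C3-A20 against DMSO, where the shares over all genes were 11.7% and 15.9%. C130071C03Rik had 14.35 ± 2.20 TPM with NAT, 13.0 ± 3.38 TPM with P7C3-A20 and 19.3 ± 1.64 TPM with DMSO (SD, n = 3 each), from 73 to 140 reads in a library. All its compound libraries were below all DMSO libraries, by -0.41 ± 0.16 with NAT and -0.56 ± 0.16 with P7C3-A20 (SE), with limma adjusted p of 0.387 and 0.175. Airn, the antisense transcript of the imprinted Igf2r locus, had 1.65 ± 0.106 TPM with NAT, 2.06 ± 0.151 TPM with P7C3-A20 and 1.12 ± 0.10 TPM with DMSO (SD, n = 3 each), from 11 to 30 reads in a library. P7C3-A20 differed from DMSO by 0.53 ± 0.13 (SE; limma adjusted p = 0.158). The counting is not stated to use strand, so reads of Airn and of the gene across from it cannot be told apart.

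By Pearson r of log2(TPM + 1) over the 9 libraries, the genes with the most similar pattern to Rn45s were Lars2 (0.96) and Ets1 (0.93). Those most similar to Lars2 were Zkscan1 (0.97) and Rn45s (0.96), with Zkscan1 ahead. Lars2 is among the members because its row moves with Rn45s, so their match is a description. For Rpph1 they were Akr1a1 (0.95) and Snw1 (0.94), and for Rmrp Pfdn2 (0.97) and Snhg8 (0.95). For Malat1 they were Ibtk (0.98) and Lrrc4 (0.97), for Gas5 Mrgbp (0.95) and Mical1 (0.95), and for Snhg1 Glrx3 (0.96) and Rnf166 (0.95). These are the highest of 11357 genes over 9 libraries and carry no p.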

How the data were processed

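Hippocampal neural stem cells of 9 libraries, 3 in each of NAT, P7C3-A20 and DMSO, were prepared for sequencing from total RNA; the labels' protocols name a TruSeq kit. The authors deposited TPM per gene in 1 table. Bowtie 0.12.2 and the builds mm8 and mm9 appear in the submitters' processing notes with no role. How reads with several matches were counted, on which multi-copy rows such as Rn45s depend, is not given in the sources used here. Sequences came from RefSeq (GRCm38.p6) and GENCODE M21 (GRCm38) and were matched by symbol, with no coordinates taken over from the study's builds.

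Whole reads were recovered from the steps of the TPM values (tolerance 0.001, up to 0.02 for high counts) for 19302 of 19302 genes above 0, giving the depths in the text; they were used for depths, intervals (exact Poisson, 95%) and voom. Tests were limma-trend (limma 3.58.1, R 4.3.3) on log2(TPM + 1), all 9 libraries in 1 fit with group alone, for genes of at least 1 TPM in at least 3 libraries, with Benjamini-Hochberg adjustment over all 13839 genes and a threshold of 0.05. A fold on this scale understates the change of low genes such as Meg3. Fits and read recovery were tested on simulated data. Counting intervals ignore PCR duplicates.

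The members and gene lists were chosen with earlier results of these data known. Named were all 10 members, up to 4 genes of lowest p per list (mean at least 1 TPM) and, per member, the 2 genes of highest r (mean at least 5 TPM); the text gives a part of them. All columns were mapped to a sample (0 unmapped). Alternatives were another scaling, pseudocount, filter, fit, GC correction and leaving out libraries.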

Additional observations from a re-analysis of the deposited data

How the results depend on the processing

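The 4 rows Rn45s, Lars2, Rpph1 and Rmrp stayed below DMSO with both compounds under every alternative that gave them a value. Genes called with NAT against DMSO numbered 4, and 1 with a pseudocount of 0.1, 2 with a minimum of 5 TPM, 7 from the 6 compared libraries alone and 36 with voom on the recovered reads; with P7C3-A20 against DMSO 3, and 0, 0, 5 and 468 under those settings; for NAT against P7C3-A20 0, with 5 from the 6 libraries and 254 with voom. Members called were 0 in each, with 4, 2 and 1 under voom, which was chosen after seeing the data; those 4 and 2 are rows chosen by their values and test nothing, and the 1 is Malat1. With the replicate number as a block, 7 genes passed with P7C3-A20 against vehicle and 1 in the comparison of the compounds. Same-numbered libraries correlated between -0.0622 and 0.0673 in their deviations from group means. Libraries of different number were not set beside them, so this does not settle whether the numbers pair libraries. With the block, the SE fell from 0.17 to 0.11 for Lars2 and from 0.14 to 0.09 for Snhg11, and rose slightly for Malat1, Meg3 and Snhg1. Leaving out 1 library gave 1 to 11, 1 to 10 and 0 to 1 genes in the 3 comparisons, and 0 to 1, 0 to 0 and 0 to 0 members, the 1 being Rpph1 without NAT replicate 2, again a row chosen by its values.

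For Snhg1, NAT against P7C3-A20, 0.0003 became -0.0017 after rescaling without Rn45s and Lars2, -0.0051 under quantile normalization, -0.088 with the GC trend removed and -0.025 with voom; the cause was not tested. With 1 library left out, the differences whose sign turned ranged, against DMSO, from -0.087 to 0.036 for Meg3, -0.070 to 0.087 for Miat and -0.019 to 0.020 for Gas5 with NAT, and from -0.29 to 0.036 for Malat1 with P7C3-A20; for NAT against P7C3-A20 they ranged from -0.41 to 0.050 for Rn45s, -0.33 to 0.044 for Lars2 and -0.043 to 0.046 for Snhg1. GC correction left out Rn45s, which has no sequence among those used here. The GC trend was steepest in P7C3-A20 replicate 3, at 0.122 log2 units per 10% GC, against -0.066 to 0.0384 in the other libraries. With the trend removed, the Rpph1 differences from DMSO were -1.02 with NAT and -0.55 with P7C3-A20. Those of Rmrp were then -1.61 and -0.90. Depth limits Rpph1, Rmrp and the small RNAs, with 5 to 54 reads behind each value of the first 2.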
